A study of Mus musculus with 10 samples.

Results

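The immediate early AP-1 and Egr genes described here are 10 of the 25700 genes counted in regenerating mouse muscle: *Fos*, *Fosb*, *Fosl2*, *Jun*, *Junb*, *Jund*, *Egr1*, *Atf3*, *Ier2* and *Klf4*. They were selected on the readout itself, because *Fos* was among the genes that were lower with a small p in miR-501 ΔMP than in Pax7 Cre muscle, and the other 9 genes belong to the same early response. All values of the 10 genes between the genotypes are therefore a description without a test. Tibialis anterior (TA) muscle of 10 male C57BL/6 mice was taken at day 6 after intramuscular injection of cardiotoxin (CTX), a snake venom toxin that destroys muscle fibers and sets off their regeneration, and its mRNA was sequenced. All mice were 12 weeks old, and each library came from a separate mouse. There were 5 Pax7 Cre mice and 5 mice with Pax7Cre and a floxed miR-501 gene on the X chromosome (Pax7Cre miR-501fl/Y, titled miR-501KO and written miR-501 ΔMP here). The labels call the Pax7 Cre mice wild type, yet Cre under the Pax7 promoter and CTX injury were common to both genotypes. Cre is expressed there in muscle stem cells, so miR-501 is deleted in myogenic progenitors and the fibers they form, while immune, endothelial and connective tissue cells of the muscle keep it. Uninjured muscle was not analysed here. The totals ranged from 18609222 to 22064583 counts for Pax7 Cre and from 20046670 to 24753258 counts for miR-501 ΔMP.

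AP-1 is a dimer of basic leucine zipper proteins, in which a member of the Fos family pairs with a member of the Jun family, and Jun proteins also pair with each other. Genes such as *Fos* and *Egr1* are switched on within minutes of a growth factor, stress or stretch signal, through kinases that act on serum response factor and its partners, and their transcripts decay fast. In skeletal muscle they are known to respond to injury and exercise and to accompany the activation of satellite cells, and they are also induced when tissue is handled or dissociated.

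The muscles were checked against markers of their cell types. Mature fiber genes had the most transcripts, with *Acta1*, skeletal actin, at 10500 ± 3460 CPM (counts scaled to library size) and 11100 ± 1750 CPM in Pax7 Cre and miR-501 ΔMP mice (SD, n = 5 each). *Actc1*, an actin of regenerating fibers, had 2970 ± 593 and 3370 ± 635 CPM (SD, n = 5 each). *Myog*, which drives the differentiation of myogenic progenitors, had 222 ± 46.8 and 237 ± 13.7 CPM (SD, n = 5 each). The macrophage gene *Lyz2* with 2820 ± 416 and 2780 ± 222 CPM, *Col1a1* of fibro-adipogenic progenitors with 7240 ± 1890 and 7310 ± 791 CPM, and the endothelial gene *Cdh5* with 237 ± 22.4 and 227 ± 23.9 CPM were also abundant (SD, n = 5 each). Of 6 neutrophil markers 4 passed the filter, with *Csf3r* the most abundant at 31.3 ± 2.56 and 30.7 ± 3.89 CPM (SD, n = 5 each), while *Ly6g* had 0 to 1 and *Mpo* 0 to 15 counts per mouse. The members are expressed by many of these cell types, and in bulk RNA fewer cells of a type and less RNA per cell cannot be told apart. *Mir501* was not analysed here, so the deletion itself was not checked. *Clcn5*, whose intron holds *Mir501*, had 62.1 ± 8.59 CPM in Pax7 Cre and 64.9 ± 1.55 CPM in miR-501 ΔMP mice, and *Pax7* had 22.2 ± 2.18 and 23.0 ± 2.09 CPM (SD, n = 5 each).

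Over all 14410 genes with enough counts to be tested, edgeR's quasi-likelihood test found 0 genes with a Benjamini-Hochberg adjusted p under 0.05 between the genotypes (0.0%), and edgeR's likelihood ratio test and DESeq2 also found 0. At an unadjusted p under 0.05, 96 genes (0.666%) were lower and 55 genes (0.382%) were higher in miR-501 ΔMP mice. Without Pax7 Cre mouse 2 there were 267 higher and 186 lower genes, without Pax7 Cre mouse 4 there were 228 higher and 242 lower genes, and without miR-501 ΔMP mouse 1 there were 59 lower genes. All 10 members were tested, and *Fos* was the 1 member past the unadjusted threshold, which is how the genes were chosen.

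The members differed widely in level. Per kilobase of annotated exon, and over all 10 mice, *Jund* was the most abundant with a mean level of 42.3 ± 8.44 CPM per kb (SD, n = 10), followed by *Jun* at 26.8 ± 3.63 and *Junb* at 24.2 ± 3.18 CPM per kb. The 3 Jun genes thus stood above the other 7 members. *Egr1* at 13.1 ± 2.08, *Ier2* at 11.4 ± 2.05 and *Atf3* at 10.1 ± 1.6 CPM per kb formed the middle of the order, and their ranges over mice overlapped. *Klf4* at 6.63 ± 1.51, *Fos* at 6.56 ± 2.17 and *Fosl2* at 5.56 ± 0.988 CPM per kb did not differ beyond their spread, with *Klf4* above *Fos* in 6 of 10 mice and *Fos* above *Fosl2* in 6 of 10 mice. *Fosb* was the lowest at 0.607 ± 0.345 CPM per kb, below *Fosl2* in all 10 mice. Neighbours in this order whose ranges did not overlap were *Junb* with *Egr1* and *Fosl2* with *Fosb*.

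The Fos family members pair with Jun proteins and cannot bind DNA as stable dimers among themselves. *Fos* (ENSMUSG00000021250, chr12:85473890-85477273 on the plus strand of GRCm38) encodes c-Fos. In Pax7 Cre mice 1 to 5 it had 541, 283, 323, 323 and 489 counts, which after normalization were levels of 24.2, 14.9, 17.1, 13.0 and 23.9 CPM. In miR-501 ΔMP mice 1 to 5 it had 298, 261, 363, 250 and 200 counts, or 11.9, 12.3, 15.1, 13.2 and 8.48 CPM. Pax7 Cre mice 1 and 5 stood high and miR-501 ΔMP mouse 5 stood low, and the genotypes overlapped, since Pax7 Cre mice 2 and 4 lay within the range of the miR-501 ΔMP mice. The median was 17.1 CPM with an SD of 5.19 for Pax7 Cre and 12.3 CPM with an SD of 2.43 for miR-501 ΔMP (n = 5 each). The log2 fold change that edgeR estimated was −0.61, with a standard error of 0.191 derived from its test statistic. Counting error alone would give a coefficient of variation of 5.07% for Pax7 Cre and 6.07% for miR-501 ΔMP, below the 27.9% and 19.9% that were observed between mice. The difference had the same direction in all 10 fits that left out 1 mouse, a direction that the choice of *Fos* favours.

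*Fosb* encodes a close relative of c-Fos and was the least counted member. It had 82, 81, 63, 39 and 100 counts in Pax7 Cre mice 1 to 5, or 3.67, 4.27, 3.33, 1.56 and 4.90 CPM. In miR-501 ΔMP mice 1 to 5 it had 57, 54, 221, 70 and 57 counts, or 2.28, 2.55, 9.20, 3.71 and 2.42 CPM. miR-501 ΔMP mouse 3 stood far above every other mouse, while the other 4 miR-501 ΔMP mice lay within the range of the Pax7 Cre mice. The log2 fold change was 0.20 with a standard error of 0.403 and turned to −0.37 without miR-501 ΔMP mouse 3. The same mouse had the highest *Egr2* level of the 10 mice, 13.4 CPM beside 5.72 to 9.23 CPM in the others, a gene named after its values were seen. *Fosl2* encodes Fra-2, a Fos family protein without the strong activation domain of c-Fos. Its level was 41.0 to 69.1 CPM in Pax7 Cre and 49.5 to 61.7 CPM in miR-501 ΔMP mice, with Pax7 Cre mice 4 and 5 above and Pax7 Cre mice 1, 2 and 3 below all miR-501 ΔMP mice.

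The Jun family members can pair with each other as well as with Fos proteins. *Jun*, which encodes c-Jun, had 1711, 1535, 1270, 2466 and 2074 counts in Pax7 Cre mice 1 to 5, or 76.6, 81.0, 67.1, 98.9 and 102 CPM. In miR-501 ΔMP mice 1 to 5 it had 1908, 2032, 2028, 1793 and 1860 counts, or 76.4, 95.9, 84.5, 95.0 and 78.8 CPM. Pax7 Cre mice 4 and 5 were the highest and Pax7 Cre mouse 3 the lowest, and the miR-501 ΔMP mice lay between them. *Jund*, the most steadily expressed Jun gene of most tissues, had 1521, 1107, 920, 2393 and 1697 counts in Pax7 Cre mice, or 68.1, 58.4, 48.6, 96.0 and 83.1 CPM. In miR-501 ΔMP mice it had 1453, 1782, 1648, 1355 and 1628 counts, or 58.2, 84.1, 68.6, 71.8 and 69.0 CPM. Pax7 Cre mouse 4 was again the highest and Pax7 Cre mouse 3 the lowest. *Junb*, often a weaker activator that opposes c-Jun, ranged from 44.6 to 68.2 CPM in Pax7 Cre and from 48.6 to 60.2 CPM in miR-501 ΔMP mice, with the same 2 Pax7 Cre mice at its ends. The log2 fold changes were 0.02 for *Jun*, −0.07 for *Junb*, −0.01 for *Jund* and 0.07 for *Fosl2*, with standard errors between 0.113 and 0.163 that exceeded each of them. *Junb* overlaps *Prdx2* on the opposite strand within annotated exons, and the strand setting of the counting is not given in the sources used here. *Prdx2* had 47522 counts over all mice beside 12161 of *Junb*, and reads of the overlap may be counted to either gene. *Jun* and *Jund* each overlap an antisense gene in their exons, and both antisense genes were not among those counted.

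The remaining members are an Egr zinc finger gene and 3 other early genes. *Egr1*, a zinc finger activator that binds GC-rich elements, had 1584, 1108, 1011, 1588 and 1402 counts in Pax7 Cre mice 1 to 5, or 70.9, 58.5, 53.4, 63.7 and 68.7 CPM. In miR-501 ΔMP mice 1 to 5 it had 1228, 1035, 1690, 1069 and 1097 counts, or 49.2, 48.8, 70.4, 56.6 and 46.5 CPM. miR-501 ΔMP mice 1, 2 and 5 lay below all Pax7 Cre mice, miR-501 ΔMP mouse 3 lay among the highest, and the genotypes overlapped. *Ier2*, a small nuclear early response gene, ranged from 11.6 to 21.9 CPM in Pax7 Cre and only from 14.6 to 17.0 CPM in miR-501 ΔMP mice, with 4 Pax7 Cre mice above and Pax7 Cre mouse 3 below all miR-501 ΔMP mice. Its coefficient of variation in miR-501 ΔMP mice was 5.49%, about the 5.29% that counting error gives. *Atf3*, a stress-induced partner of Jun proteins, ranged from 18.8 to 26.8 CPM in Pax7 Cre and from 18.9 to 29.0 CPM in miR-501 ΔMP mice. *Klf4*, a Krüppel-like factor, ranged from 17.7 to 30.9 CPM in Pax7 Cre mice and had a mean of 19.3 ± 3.9 CPM in miR-501 ΔMP mice (SD, n = 5), with Pax7 Cre mouse 2 the highest of all and miR-501 ΔMP mouse 3 the lowest at 14.2 CPM. The log2 fold changes were −0.22 for *Egr1* (standard error 0.119), −0.21 for *Ier2* (standard error 0.142), −0.13 for *Klf4* (standard error 0.171) and 0.06 for *Atf3* (standard error 0.128). The median log2 fold change of the 10 members was −0.04, beside −0.004 over all genes tested. Leaving out 1 mouse at a time, the sign turned at least once for 7 members and kept for *Fos*, *Egr1* and *Ier2*. In 0 of the 10 members did every miR-501 ΔMP mouse lie below every Pax7 Cre mouse (0.0763% of all genes), and in 0 did every miR-501 ΔMP mouse lie above (0.0625%).

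**Figure D1:**
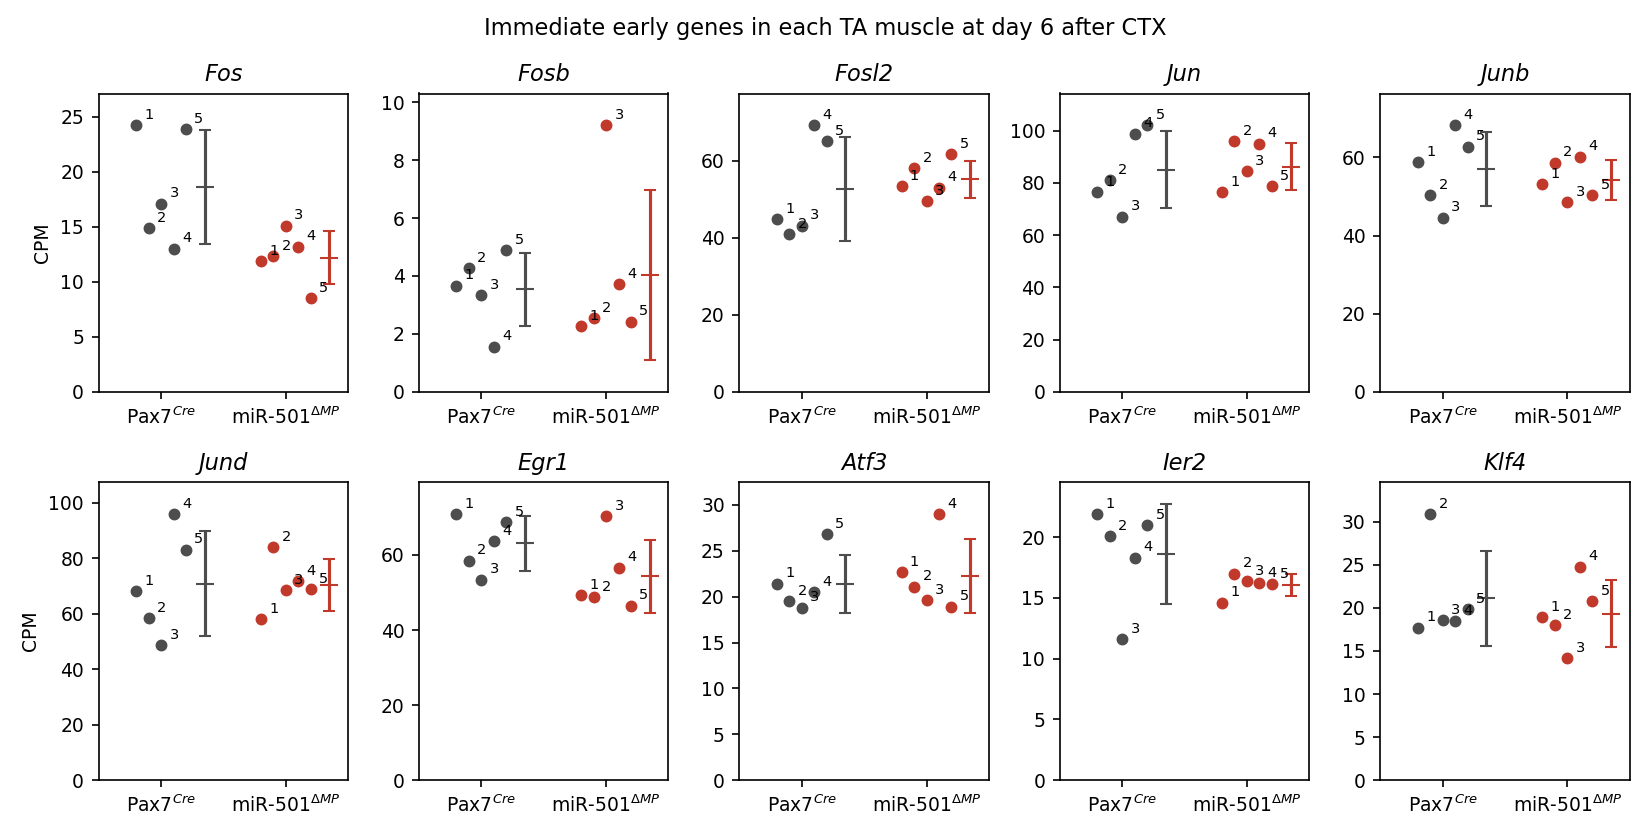
Normalized level (CPM, y axis from 0) of each member in the TA muscle of each mouse, by genotype, with the mouse number beside each point and the mean ± SD (n = 5) as a bar. *Fos* spans 13.0 to 24.2 CPM in Pax7 Cre and 8.48 to 15.1 CPM in miR-501 ΔMP mice, and *Fosb* has 1 miR-501 ΔMP mouse at 9.20 CPM.

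The spread between mice of the same genotype enters the p by which *Fos* was chosen, so its values are given as a description. The biological coefficient of variation, the spread between mice beyond counting error, was 0.210 for *Fos* and 0.428 for *Fosb*. These values were at the 85.4 and 99.0 percentiles of all genes tested. For *Klf4* the value was 0.190, for *Jund* 0.185, and for *Fosl2* 0.166. *Jun*, *Junb* and *Egr1* were close to the median gene, with 0.139, 0.132 and 0.139 beside a median of 0.129 over all genes.

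Whether the members varied together was tested on log2 CPM after the mean of each genotype was subtracted, with exact two-sided permutation of the mice within genotype. Of all 45 pairs, 5 had an unadjusted p under 0.05 and 0 a Benjamini-Hochberg adjusted p under 0.05, with the smallest adjusted p at 0.136. Of 45 unrelated pairs 2.25 would pass the unadjusted threshold by chance, and the 5 became 3 without Pax7 Cre mouse 3 and 7 without Pax7 Cre mouse 4. The highest r were among the 3 Jun genes, with the base composition of the libraries (below) left in. *Jun* and *Jund* had r = 0.899 (exact permutation p = 0.00417, adjusted p = 0.136), rho = 0.879 (exact permutation p = 0.00806, adjusted p = 0.181) and r = 0.838 without the 2 mice farthest from the median of *Jun*. *Junb* and *Jund* had r = 0.881 (exact permutation p = 0.00604, adjusted p = 0.136), rho = 0.915 (exact permutation p = 0.00486, adjusted p = 0.181) and r = 0.699 without the 2 mice farthest from the median of *Junb*. For *Jun* with *Junb* r was 0.841 (exact permutation p = 0.0138, adjusted p = 0.207), rho was 0.758 (exact permutation p = 0.0474, adjusted p = 0.322), and r was 0.740 without 2 mice. *Fosl2*, although a Fos gene, had its highest r with *Jund*, at 0.815 (exact permutation p = 0.0335, adjusted p = 0.299) and rho = 0.733 (exact permutation p = 0.0692, adjusted p = 0.322). With *Jun* and *Junb* it had r = 0.708 and 0.718 (exact permutation p = 0.0998 and 0.0931, adjusted p = 0.374 each) and rho = 0.636 and 0.770 (exact permutation p = 0.145 and 0.0716, adjusted p = 0.467 and 0.322). These relations of *Fosl2* rested on Pax7 Cre mice 4 and 5, since r was 0.311 with *Jund*, −0.124 with *Jun* and 0.204 with *Junb* without them.

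*Fos* was nearest to *Egr1* and *Fosb* among the members. With *Egr1* it had r = 0.672 (exact permutation p = 0.0399, adjusted p = 0.299), rho = 0.721 (exact permutation p = 0.0291, adjusted p = 0.322) and r = 0.803 without Pax7 Cre mouse 4 and miR-501 ΔMP mouse 5. With *Fosb* it had r = 0.667 (exact permutation p = 0.0508, adjusted p = 0.299), rho = 0.648 (exact permutation p = 0.0526, adjusted p = 0.322) and r = 0.437 without the same 2 mice. Toward the Jun genes the r of *Fos* was near 0, with 0.109 for *Jun* (exact permutation p = 0.796, adjusted p = 0.943), 0.102 for *Junb* (exact permutation p = 0.802, adjusted p = 0.943) and −0.001 for *Jund* (exact permutation p = 0.998, adjusted p = 0.998). These 3 values were not steady, since without Pax7 Cre mouse 4 and miR-501 ΔMP mouse 5 they were 0.386, 0.529 and 0.606, and they also rose when the base composition of the libraries was taken into account (below). Their rho values were 0.164, 0.236 and 0.188 (exact permutation p = 0.679, 0.545 and 0.638).

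**Figure D2:**
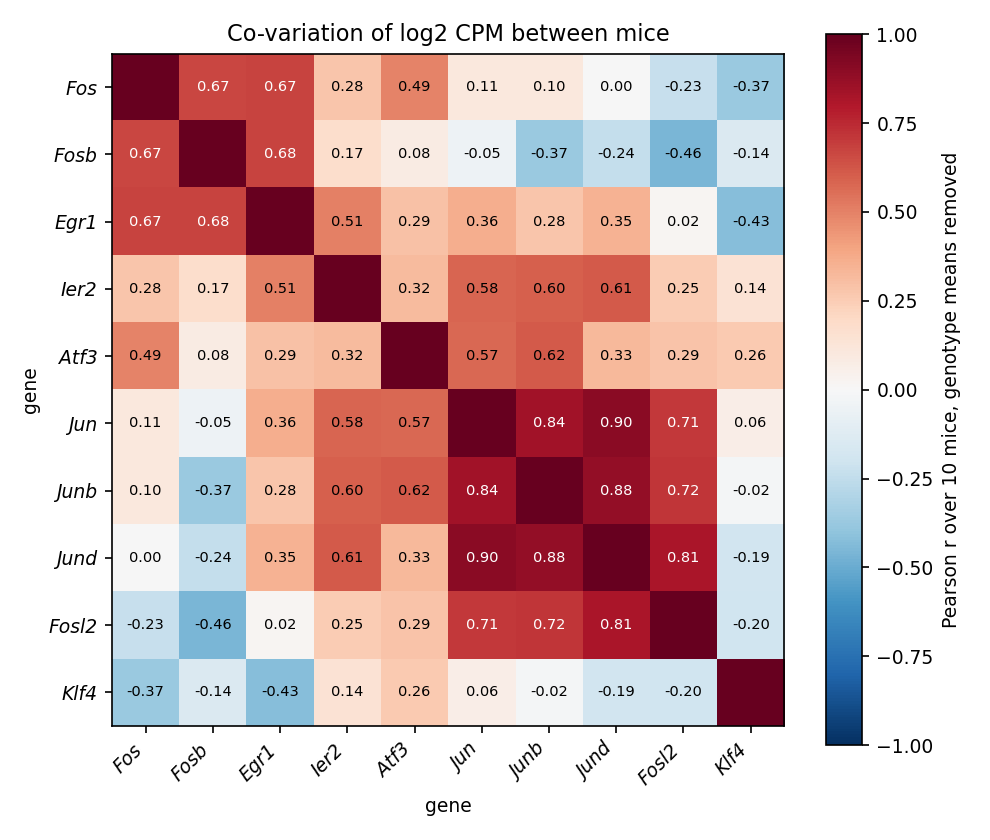
Pearson r of log2 CPM for each pair of members over 10 mice after subtraction of the genotype means (color scale from −1 to 1). *Jun*, *Junb*, *Jund* and *Fosl2* have r from 0.708 to 0.899 with each other, of which the values of *Fosl2* fall to 0.311 or less without Pax7 Cre mice 4 and 5, and *Fos*, *Fosb* and *Egr1* have r from 0.667 to 0.676.

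By the rule for likeness, the 8 genes outside the members with the highest r to *Fos* over the 10 mice were *Slc1a2* (0.949), *Cep126* (0.934), *Mthfd2l* (0.929), *Klf6* (0.906), *Otulin* (0.879), *Laptm4b* (0.872), *Sgce* (0.858) and *Chil3* (0.855). Without Pax7 Cre mouse 4 and miR-501 ΔMP mouse 5, their r was between 0.723 and 0.920. They are the top of 14400 genes and carry no p. *Slc1a2* had only 5 to 17 counts per mouse and *Cep126* 20 to 39, so counting error is large in both. *Klf6*, a Krüppel-like early response gene, is the 1 gene of the 8 that also stands in the list of other immediate early genes. It had 101 to 110 CPM in Pax7 Cre and 109 to 118 CPM in miR-501 ΔMP mice, with a log2 fold change of 0.12 (standard error 0.062). Of the 8 genes 6 were below 0, among them *Cep126* at −0.49 (standard error 0.191, unadjusted p = 0.0236, adjusted p = 1.00 in edgeR) and *Chil3* at −0.26 (standard error 0.215), and *Slc1a2* at 0.05 (standard error 0.367) was above 0 with *Klf6*. In the same ranking *Egr1* would stand at place 119 and *Fosb* at place 121, and *Jund* at place 7363.

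*Fos* was then compared with the summed CPM of markers of 13 cell types, with a heat shock list, library size and the share of mitochondrial counts, again within genotype. Of these 16 relations 0 had an unadjusted p under 0.05, and the smallest adjusted p was 0.977. The highest r was with the heat shock and chaperone genes, at 0.605 (exact permutation p = 0.0906, adjusted p = 0.977) with rho = 0.624 (exact permutation p = 0.0817, adjusted p = 1.00), and it was 0.321 without the 2 mice farthest from the median of that sum. Then came the endothelial markers at r = 0.497 (exact permutation p = 0.168, adjusted p = 0.977) with rho = 0.442 (exact permutation p = 0.241, adjusted p = 1.00), and r was 0.017 without Pax7 Cre mouse 4 and miR-501 ΔMP mouse 3. For the mature fiber markers r was 0.036 (exact permutation p = 0.949, adjusted p = 0.977), rho was 0.091 (exact permutation p = 0.821, adjusted p = 1.00) and r was 0.137 without Pax7 Cre mice 2 and 4. That r was −0.383 without Pax7 Cre mouse 4 alone and 0.511 without Pax7 Cre mouse 2 alone. Without miR-501 ΔMP mouse 5, 1 of the 16 relations of *Fos* had an unadjusted p under 0.05.

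All 10 members, *Fos* included, were compared with the same measures, and with the GC slope described below, after the data had been seen. Of these 170 relations 12 had an unadjusted p under 0.05, 0 of them with *Fos*, and 0 had an adjusted p under 0.05. The 12 became 9 to 16 without 1 mouse and 3 without Pax7 Cre mice 2 and 4. *Fosb* had the smallest p, with the endothelial markers, at r = 0.908 (exact permutation p = 0.000972, adjusted p = 0.165) and rho = 0.879 (exact permutation p = 0.00187, adjusted p = 0.319), and r was 0.811 without Pax7 Cre mouse 4 and miR-501 ΔMP mouse 3. All 6 genes of that list passed the filter, with *Cdh5* the most abundant, and their sum in Pax7 Cre mice 1 to 5 was 699, 765, 658, 620 and 755 CPM. In miR-501 ΔMP mice 1 to 5 the sum was 644, 615, 777, 703 and 662 CPM. miR-501 ΔMP mouse 3 had the highest endothelial sum as well as the highest *Fosb*, and Pax7 Cre mouse 4 had nearly the lowest sum and the lowest *Fosb*. *Klf4*, which endothelial cells and macrophages also express, had, with the mature fiber markers, r = 0.786 (exact permutation p = 0.00799, adjusted p = 0.453) and rho = 0.709 (exact permutation p = 0.0215, adjusted p = 0.732), and r was 0.614 without Pax7 Cre mice 2 and 4. All 8 mature fiber genes passed the filter, and their sum was 36500, 70400, 35700, 28500 and 46800 CPM in Pax7 Cre mice 1 to 5. It was 41500, 42700, 45000, 55100 and 48900 CPM in miR-501 ΔMP mice 1 to 5. Pax7 Cre mouse 2 had the highest mature fiber sum, the highest *Klf4* and the highest mitochondrial share, 14.0% of its counts, while Pax7 Cre mouse 4 had the lowest sum and the lowest share, 6.59%. With that share *Klf4* had r = 0.738 (exact permutation p = 0.0331, adjusted p = 0.563) and rho = 0.648 (exact permutation p = 0.0582, adjusted p = 0.837), and r was 0.686 without the same 2 mice.

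*Fosl2* had an unadjusted p under 0.05 with 4 of these measures, the GC slope (below) among them, and an adjusted p of 0.535 or more with each. With the markers of fibro-adipogenic progenitors it had r = 0.828 (exact permutation p = 0.0374, adjusted p = 0.578) and rho = 0.855 (exact permutation p = 0.0209, adjusted p = 0.732), and r was 0.702 without Pax7 Cre mice 1 and 2. With the myogenic markers it had r = 0.817 (exact permutation p = 0.0220, adjusted p = 0.535) and rho = 0.782 (exact permutation p = 0.0485, adjusted p = 0.825), and r was 0.601 without Pax7 Cre mice 2 and 4. With the mitochondrial share it had r = −0.747 (exact permutation p = 0.0189, adjusted p = 0.535) and rho = −0.673 (exact permutation p = 0.0435, adjusted p = 0.825), and r was −0.372 without Pax7 Cre mice 2 and 4. All 6 fibro-adipogenic genes, led by *Col1a1*, and all 6 myogenic genes, led by *Myog*, passed the filter. The fibro-adipogenic sum was 7700, 6940, 9000, 10700 and 10300 CPM in Pax7 Cre mice 1 to 5, and 8060, 9500, 9230, 8120 and 9650 CPM in miR-501 ΔMP mice 1 to 5. The myogenic sum was 551, 393, 464, 700 and 551 CPM in Pax7 Cre mice, and 582, 562, 506, 526 and 573 CPM in miR-501 ΔMP mice. Pax7 Cre mouse 4 was the highest in *Fosl2* and in both sums. Pax7 Cre mouse 5 was next to it in *Fosl2* and in the fibro-adipogenic sum, and the r of 0.702 above still includes both mice. The other relations under an unadjusted p of 0.05 on the marker sums were those of *Fosb* with the myogenic markers (r = −0.598, exact permutation p = 0.0312, adjusted p = 0.563; rho = −0.527, exact permutation p = 0.135, adjusted p = 0.837; r = −0.459 without 2 mice) and of *Klf4* with 2 marker sums. *Klf4* had r = 0.777 with the Schwann cell markers (exact permutation p = 0.0209, adjusted p = 0.535; rho = 0.636, exact permutation p = 0.0671, adjusted p = 0.837), but 0.148 without Pax7 Cre mouse 2 and miR-501 ΔMP mouse 4. With the regenerating fiber markers *Klf4* had r = −0.706 (exact permutation p = 0.0460, adjusted p = 0.652; rho = −0.394, exact permutation p = 0.286, adjusted p = 0.979), but −0.116 without the same 2 mice. The part of cell composition in the levels of *Fosb*, *Fosl2* and *Klf4* was not tested.

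A further measure, added after the data had been seen, was how the level of a gene in a library depends on its base composition. The GC slope of a library is the slope of log2 CPM, relative to the mean over all mice, on the GC content of the transcript over all genes tested, given per 10 percentage points of GC. It was −0.055, −0.018, −0.157, 0.138 and 0.045 in Pax7 Cre mice 1 to 5 and −0.072, 0.047, 0.012, 0.008 and 0.051 in miR-501 ΔMP mice 1 to 5. Pax7 Cre mice 3 and 4, the lowest and the highest mouse for *Jund* and *Junb*, were also the lowest and the highest in GC slope. Against the slope *Jund* had r = 0.918 (exact permutation p = 0.00285, adjusted p = 0.242) and rho = 0.830 (exact permutation p = 0.0184, adjusted p = 0.732), and r was 0.755 without those 2 mice. *Jun* had r = 0.831 (exact permutation p = 0.0144, adjusted p = 0.535) and rho = 0.855 (exact permutation p = 0.0135, adjusted p = 0.732), and r was 0.683 without them. For *Fosl2* r was 0.788 (exact permutation p = 0.0299, adjusted p = 0.563), rho was 0.818 (exact permutation p = 0.0315, adjusted p = 0.799) and r was 0.635 without them. For *Junb* r was 0.727 (exact permutation p = 0.0566, adjusted p = 0.683), rho was 0.661 (exact permutation p = 0.112, adjusted p = 0.837) and r was 0.200 without them. *Fos* had r = −0.289 (exact permutation p = 0.514, adjusted p = 0.965), rho = −0.152 (exact permutation p = 0.689, adjusted p = 0.979) and r = −0.126 without them. The GC content of the longest annotated transcript was 67.1% for *Jund*, 62.6% for *Junb*, 55.5% for *Jun*, 53.1% for *Fosl2* and 51.9% for *Fos*, beside a median of 49.8% over all genes tested. It was 60.9% for *Ier2*, 57.3% for *Egr1*, 56.0% for *Fosb*, 54.6% for *Klf4* and 52.2% for *Atf3*. Their r with the slope was 0.595, 0.245, −0.241, 0.009 and 0.140 (exact permutation p = 0.270, 0.461, 0.489, 0.980 and 0.703; adjusted p = 0.965, 0.965, 0.965, 0.980 and 0.972). Their rho was 0.297, 0.212, −0.091, −0.055 and 0.055 (exact permutation p = 0.492, 0.595, 0.833, 0.905 and 0.890; adjusted p = 0.979 each), and r without Pax7 Cre mice 3 and 4 was 0.532, −0.040, 0.167, 0.034 and 0.040. Without Pax7 Cre mouse 3 alone the r with the slope fell to −0.205 for *Ier2*, −0.079 for *Egr1*, −0.101 for *Atf3* and −0.169 for *Klf4*, and without Pax7 Cre mouse 4 alone it was 0.792 for *Ier2*, 0.241 for *Fosb* and 0.110 for *Fos*. With the slope removed from both genes, r was 0.617 for *Jun* with *Jund*, 0.786 for *Junb* with *Jund*, 0.620 for *Jun* with *Junb*, and 0.377, 0.154 and 0.344 for *Fosl2* with *Jund*, *Jun* and *Junb*. With it removed, r was 0.801 for *Fos* with *Egr1*, 0.643 for *Fos* with *Fosb*, 0.656 for *Fos* with *Jun*, 0.475 for *Fos* with *Junb* and 0.697 for *Fos* with *Jund*. The r of *Fos* with the 3 Jun genes was thus higher than with the slope left in. *Atf3* had r = 0.830 with *Jun* and 0.759 with *Junb* after the removal, beside 0.573 and 0.617 before it. All values with the slope removed are a description without a test. Whether the slope comes from the library preparation or from the muscle cannot be told apart here.

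**Figure D3:**
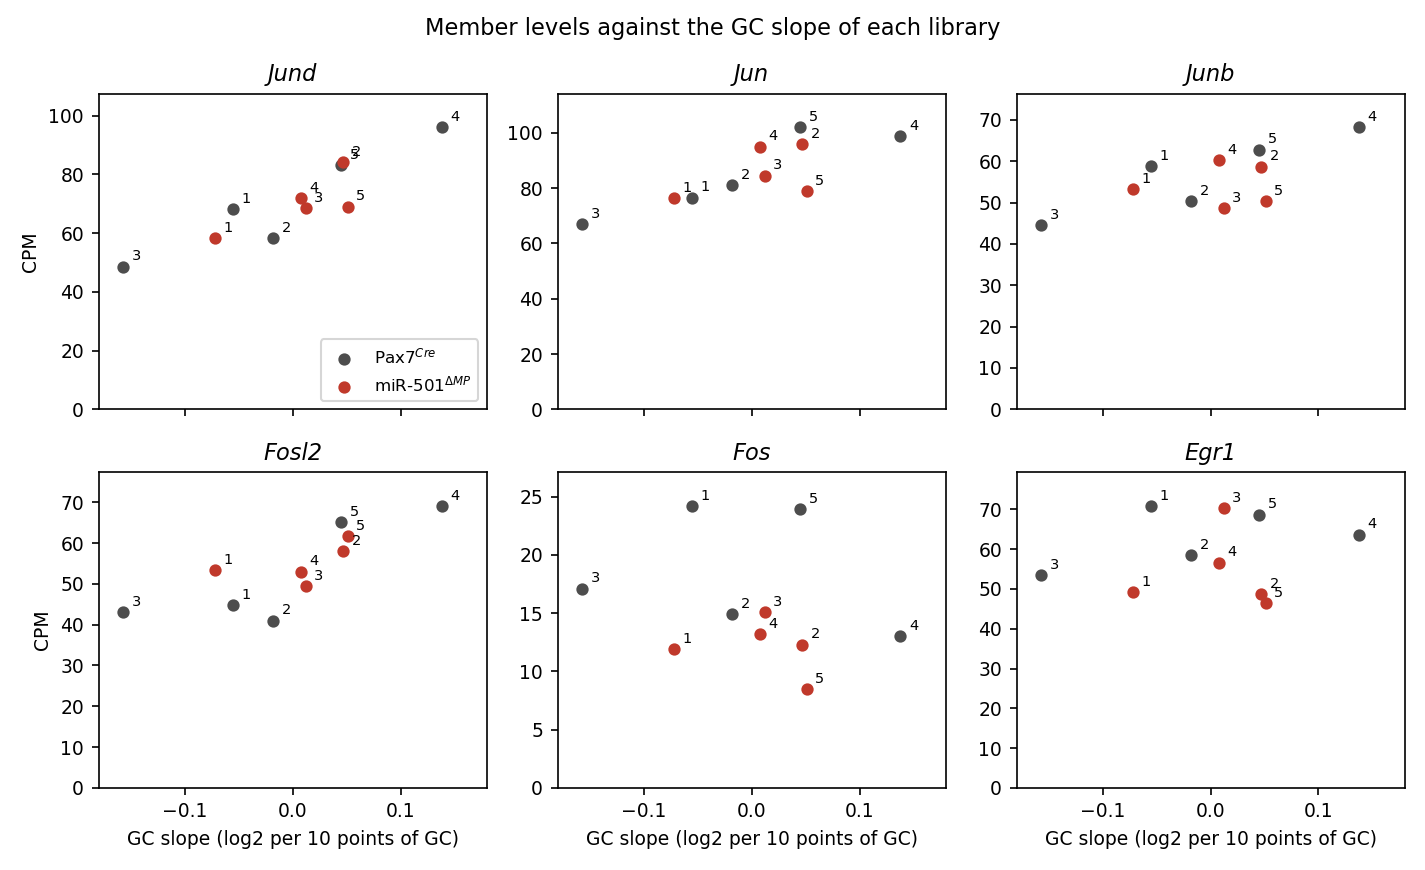
Normalized level (CPM, y axis from 0) of 6 members against the GC slope of each library (log2 units per 10 percentage points of GC), with 1 numbered point per mouse, colored by genotype. *Jund* and *Jun* are lowest in Pax7 Cre mouse 3, which has the slope of −0.157, while *Fos* shows no such order.

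Genes around the members were examined as lists, with the counts over all genes, 55 higher and 96 lower of 14410 with a median log2 fold change of −0.004, for comparison. Of 12 other AP-1 family genes, among them the Batf, Jdp and Maf branches that pair with Fos or Jun proteins, all 12 were tested, 0 were higher and 0 lower at an unadjusted p under 0.05, and the median log2 fold change was 0.05. Among the most abundant were *Maf* (log2 fold change −0.07, standard error 0.088) and *Atf7* (0.04, standard error 0.084), with levels of 136 ± 14.4 and 74.6 ± 8.39 CPM in Pax7 Cre mice (SD, n = 5 each). Among the Egr genes and their Nab co-repressors, 4 of 5 were tested, 0 were higher and 0 lower, and the median log2 fold change was 0.14. *Nab1*, *Nab2* and *Egr3* had log2 fold changes of −0.003, 0.28 and 0.31 (standard errors 0.097, 0.138 and 0.214), and *Egr4*, with 0 to 4 counts per mouse, was not tested.

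Of 41 other immediate early genes 1 was higher and 0 lower, with a median of 0.03. The gene was *Ptgs2*, which encodes the prostaglandin synthase COX-2 and is named after its values were seen. It had 2.37, 1.37, 2.11, 2.77 and 2.06 CPM in Pax7 Cre mice 1 to 5 and 2.08, 3.11, 4.41, 3.23 and 2.63 CPM in miR-501 ΔMP mice 1 to 5. The genotypes overlapped, miR-501 ΔMP mouse 3 was again the highest, and the estimated log2 fold change, 0.52 with a standard error of 0.226, had an unadjusted p = 0.0380 and an adjusted p = 1.00 in edgeR's quasi-likelihood test. The most abundant genes of the list were *Mcl1*, *Zfp36l1* and *Sgk1*, with log2 fold changes of 0.02, −0.17 and −0.03 (standard errors 0.083, 0.093 and 0.117). The 22 upstream genes of the serum response and stress kinase pathway had 0 higher and 0 lower genes and a median of 0.03, with *Rps6ka3*, among the most abundant, at 0.08 (standard error 0.080). Of 19 textbook AP-1 target genes 18 were tested, 0 were higher and 0 lower, and the median was −0.03. *Spp1*, *Cd44* and *Hmox1* had log2 fold changes of 0.16, 0.26 and 0.15 (standard errors 0.244, 0.137 and 0.224), and *Il6*, with 3 to 12 counts per mouse, was not tested. All 10 heat shock and chaperone genes were tested with 0 higher and 0 lower and a median of −0.04, led by *Hspa8*, *Hsp90ab1* and *Hspd1* with log2 fold changes of −0.02, −0.03 and −0.06 (standard errors 0.102, 0.093 and 0.115).

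These counts moved with the mice included, as did those over all genes. Without Pax7 Cre mouse 4 there were 228 higher and 242 lower genes of all 14487 tested. Without it, 6 other immediate early genes passed the unadjusted threshold as higher, among them *Gadd45g* (log2 fold change 0.45) and *Npas4* (0.96), as were *Egr3* (0.53), *Nab2* (0.39) and *Fosl1* (0.88). Of the AP-1 targets *Cd44* was then higher (0.35) and *Mmp3* lower (−0.695). The adjusted p in edgeR was 0.996 for each of these genes, and those outside the naming rule were named after their values were seen. In 5 of the 10 fits without 1 mouse, those without Pax7 Cre mouse 2, 3 or 5 or miR-501 ΔMP mouse 2 or 4, *Ptgs2* and all other genes of its list were not past the unadjusted threshold as higher. Without Pax7 Cre mouse 2, *Zfp36l1* (log2 fold change −0.225) and *Mmp9* (−0.55) were lower, beside 267 higher and 186 lower of all 14510 genes. Their unadjusted p was 0.0187 and 0.0161 and their adjusted p 0.999 each in edgeR, and *Mmp9* was named after its values were seen. Without Pax7 Cre mouse 5, 1 other AP-1 family gene was higher, beside 66 higher and 115 lower of all 14512 genes. Without miR-501 ΔMP mouse 3, 2 AP-1 targets and 2 other immediate early genes were higher, beside 67 higher and 104 lower of all 14483 genes. With all mice, 2 other immediate early genes were higher in DESeq2's Wald test, beside 52 higher and 98 lower of all 14410 genes. With the replicate number as a block in edgeR, 3 other immediate early genes and 1 AP-1 target were higher. Over all genes, 87 were higher and 102 lower with that block.

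The sequence before the start of the members was read from RefSeq (GRCm38.p6), in windows from 250 bases before to 50 bases after the start, which held 8 of the 10 members. *Egr1* and *Ier2* are named only. Both strands were searched for the cAMP response element TGACGTCA and its shorter core TGACG, the AP-1 element TGACTCA, the *Jun* element TGACATCA, the Egr elements GCGGGGGCG and GCGTGGGCG, the TATA box TATAAA and the CArG box of serum response factor. TGACG is part of TGACGTCA. The core TGACG was in 5 of the 8 windows and in 20.8% of all 32851 promoters. *Fos* held it at positions −129 and −66, *Fosb* at −60 and *Junb* at −106, counted from the start at 0 and on the strand of the gene, and *Klf4* and *Atf3* held it on the other strand. GCGGGGGCG was in 3 windows, those of *Fosb*, *Fosl2* and *Klf4*, and in 2.91% of all promoters. TATAAA was in 2 windows and 13.6% of promoters, at −33 in *Fos* and at the RefSeq start itself in *Junb*, which lies 30 bases before the GENCODE start. TGACATCA was in the *Jun* window at −45 and in 3.62% of promoters. TGACGTCA (1.79% of promoters), TGACTCA (5.20%), GCGTGGGCG (0.612%) and the CArG box (1.63%) were in 0 of the 8 windows, which says only that these letters are not in these windows. The RefSeq start of *Jund* lies 1210 bases before the GENCODE gene start, while those of *Atf3* and *Fosl2*, whose windows count above, lie 34706 and 671 bases after it. Those of *Klf4* and *Fosb* lie 9 bases before and 6 bases after it. Shown are the 250 bases before the start of *Fos*, on which the genes were chosen, and of *Jun* and *Junb*, a pair with an unadjusted p under 0.05 above, 5′ to 3′ on the strand of the gene, with matches in capitals. They lie at chr12:85473640-85473889 on the plus strand and at chr4:95052223-95052472 and chr8:84978749-84978998 on the minus strand.
Fos: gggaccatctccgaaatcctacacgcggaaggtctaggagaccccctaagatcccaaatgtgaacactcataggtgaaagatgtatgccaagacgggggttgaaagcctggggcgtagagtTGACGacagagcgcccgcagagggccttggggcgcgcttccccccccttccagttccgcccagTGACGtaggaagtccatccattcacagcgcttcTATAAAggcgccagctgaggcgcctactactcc
Jun: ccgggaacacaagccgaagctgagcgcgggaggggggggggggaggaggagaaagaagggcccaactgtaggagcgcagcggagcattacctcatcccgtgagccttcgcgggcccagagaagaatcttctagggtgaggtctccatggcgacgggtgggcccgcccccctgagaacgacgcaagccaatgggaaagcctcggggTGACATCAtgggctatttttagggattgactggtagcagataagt
Junb: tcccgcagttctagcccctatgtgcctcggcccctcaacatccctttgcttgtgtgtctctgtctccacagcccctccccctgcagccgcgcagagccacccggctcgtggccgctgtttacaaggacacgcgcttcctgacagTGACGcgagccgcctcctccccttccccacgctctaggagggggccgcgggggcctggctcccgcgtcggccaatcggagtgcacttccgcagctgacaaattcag

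The deleted miRNA could pair with a member of the group by its seed, bases 2 to 8, shown in capitals for miR-501-3p (chrX:7241270-7241291 on the minus strand, RefSeq, GRCm38.p6) and for miR-500-3p, a neighbour with the same seed (chrX:7237695-7237716 on the minus strand).
miR-501-3p: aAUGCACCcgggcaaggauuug
miR-500-3p: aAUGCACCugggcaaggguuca
The complement of the seed, GGTGCAT, was searched in the annotated 3′ untranslated regions of the tested genes (GENCODE M21). It was in 1159 of 14074 genes (8.24%) and in 1 of the 10 members, *Fos*, at chr12:85476511-85476517 on the plus strand, with the match in capitals in the target site below.
Fos site: cccgagctGGTGCATtacagaga
The match is a description of these letters and not a measure of binding. *Fos* was lower in miR-501 ΔMP mice (log2 fold change −0.61), in the comparison by which it was chosen. An effect of miR-501 on *Fos* was not tested.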

How the data were processed

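Stranded mRNA libraries of 10 TA muscles, 5 per genotype, were sequenced. The authors deposited raw counts per gene for each mouse, and the submitters' processing notes name STAR, featureCounts and the build GRCm38.p5. The strand setting is not given in the sources used here. The unit is a count of reads per gene, with 25700 genes listed, of which 25587 matched the symbol table. Libraries were scaled by TMM in edgeR 4.0.16 (R 4.3.3). Low counts were removed with filterByExpr, grouped by genotype with a minimum of 10 and a total of 15, which left 14410 genes. Genotypes were compared by the quasi-likelihood test with Benjamini-Hochberg adjustment. Each standard error was derived from that test, as the absolute log2 fold change divided by the square root of its F statistic. CPM used the normalized library sizes, and log2 CPM a prior count of 2. Correlations used numpy 2.4.6, with all 14400 arrangements of mice within genotype. Mice of the same genotype differed by more than counting noise (chi-square per degree of freedom at least 9.47). The value was 9.47 to 32.3 for pairs of miR-501 ΔMP mice and 20.1 to 226 for pairs of Pax7 Cre mice. It was highest for Pax7 Cre mice 2 and 4. Alternatives were DESeq2 1.42.0 size factors and Wald test, the likelihood ratio test, other filters, a replicate block, a prior count of 0.5, Spearman's rho, no removal of the genotype mean, and leaving out each mouse. Where the genotype mean was kept, the mice were permuted over both genotypes in 100000 random arrangements. Leaving out Pax7 Cre mice 2 and 4 together, the GC slope and the relations of members other than *Fos* were added after the data had been seen. Steps were tested on simulated data. The members and lists were chosen with earlier results of these data known. Named genes were the members, up to 3 of the most abundant tested genes of each list, the 8 genes most like *Fos* and the most abundant gene of each marker list; others are said to be named after their values were seen, and *Clcn5*, *Pax7*, *Prdx2* and the defining markers *Ly6g* and *Mpo* were named as checks.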

Additional observations from a re-analysis of the deposited data

Results flagged for a closer look

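Of 54 groups of 5 mice, for the 10 members, the marker sums and the technical measures, 3 had a mouse whose distance to its nearest neighbour, as a share of the whole log2 range, exceeded the critical value of Dixon's test. Chance flags about 1 in 20 groups, or 2.7 of 54. *Ier2* was low in Pax7 Cre mouse 3, at 11.6 CPM beside 18.3 to 21.9 CPM in the other 4 mice, with a gap of 0.719 of the range. *Klf4* was high in Pax7 Cre mouse 2, at 30.9 CPM beside 17.7 to 19.9 CPM, with a gap of 0.790. The adipocyte marker sum was low in miR-501 ΔMP mouse 1, at 3.44 CPM beside 18.4 to 36.1 CPM, with a gap of 0.714; its most abundant gene is *Adipoq*, with 43 to 579 counts per mouse.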

How the results depend on the processing

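The number of genes past an adjusted p of 0.05 between genotypes was 0 under every setting run with edgeR or DESeq2. At an unadjusted p under 0.05, the 55 higher and 96 lower genes became 153 and 159 without a filter on low counts, where 19854 genes were tested, and, when each mouse had to have 10 counts or more, 36 were higher. Without Pax7 Cre mice 2 and 4 there were 279 higher and 252 lower genes. Leaving out 1 mouse gave 39 to 267 higher and 59 to 242 lower genes. The labels number the mice of both genotypes 1 to 5 and name no pairs, so the numbers were not taken as pairs. The deviations of equally numbered mice correlated above 0.1 in 3 of 5 pairs (r = 0.337, −0.154, 0.156, −0.305 and 0.204). These values do not settle whether equal numbers mark pairs. With the replicate number as a block there were 87 higher and 102 lower genes, and 3 of 5 Pax7 Cre mice correlated best with the miR-501 ΔMP mouse of their own number. Without removal of the genotype mean, 2 pairs of members, *Jun* with *Jund* (r = 0.899) and *Junb* with *Jund* (r = 0.863), passed an adjusted p of 0.05, beside 0 pairs otherwise. That setting also permuted the mice over both genotypes, in 100000 random arrangements, in place of the 14400 within genotype. With the mean removed, r of these 2 pairs was 0.899 and 0.881. The 2 changes of setting were not tested apart. The median log2 fold change of the members was between −0.134 and 0.008 without 1 mouse. The log2 fold change of *Fos* was between −0.717 and −0.495 without 1 mouse and −0.835 without Pax7 Cre mice 2 and 4. With 5 mice per genotype and 39 to 221 counts of *Fosb* per mouse, counting error limits *Fosb* most among the members.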
